A study of Mus musculus with 6 samples.

Results

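The chemokine ligands of the mouse, the small secreted proteins that steer migrating white blood cells, were compared between 3 osteosarcoma lines and 3 cultures of differentiated bone marrow stromal cells. Of 36 measured ligand genes, 5 rose in the osteosarcoma lines and none fell: Cxcl14, Ppbp, Ccl7, Ccl2 and Cxcl10, by 2.33- to 5.40-fold. The 5 are 13.9% of the ligands, close to the 13.2% of all genes that were called higher, while 11.4% of all genes were called lower. Ligands were taken by symbol: every gene named Ccl, Cxcl, Cx3cl or Xcl with a number, plus Ppbp (the platelet basic protein, also known as Cxcl7) and Pf4 (platelet factor 4, also known as Cxcl4). A gene was measured by the probe set, the group of probes for a transcript, with the highest mean over the 6 arrays. The rule gave 36 genes, from 41 probe sets, of 19938 genes on the array. The lines OS_493H, OS_494H and OS_716H were grown from primary tumours of C57Bl6 mice with floxed alleles of both Rb and p53 (each fl/fl) and Cre under the Osterix promoter, which is active in cells of the osteoblast lineage. By the labels OS_493H came from the hip of a female, OS_494H from the hip of a male and OS_716H from the tibia of a female, at ages of 188, 190 and 226, with no unit given. The 3 cultures were of KUSA4b10, a C57Bl6 stromal line, kept for 21 days after confluence in medium with 50 ug/ml ascorbate, which drives osteoblast differentiation. Lines and cultures grew in the same RPMI medium with serum, and no allele or agent is labelled as common to both groups. The lines are 3 tumours, whereas the cultures are 3 samples of a single cell line. The cultures are titled replicates 1 to 3 and Ex1 to Ex3, which the labels do not explain and which may or may not stand for separate experiments, so p-values measure only the spread between these samples, which may be technical for the cultures.

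Chemokines are divided by the spacing of their first cysteines into CC, CXC, CX3C and XC ligands. They are held on the sugar chains of proteoglycans and bind receptors that couple to G proteins, while atypical receptors bind them without the usual signal and remove them. In bone and marrow, Cxcl12 from stromal cells retains blood stem cells, and CC ligands draw monocytes, from which osteoclasts form. Many inflammatory ligands are switched on through NF-kappaB or by interferons.

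Values are log2 expression values that the authors had made with RMA, so a difference of 1 is a 2-fold difference, and each is the osteosarcoma mean minus the osteoblast mean. Genes were called with limma where the p-value, adjusted after Benjamini and Hochberg across the 19938 genes, was under 0.05. Rb1, a floxed gene, read 9.26, 9.70 and 9.87 in OS_493H, OS_494H and OS_716H, against 10.68, 10.66 and 10.66 in cultures 1, 2 and 3. It was below the cultures in all 3 lines (limma, adjusted p = 0.00427), although which part of the gene its probes cover was not looked at. One label went against its array: OS_716H, labelled female, had 10.11 for the Y-linked gene Eif2s3y and 5.50 for Xist, close to 9.96 and 5.31 in the male line OS_494H, whereas OS_493H had 4.08 and 12.62. That line keeps its name here, and the ligand calls are given without it too. Across all genes the cultures correlated with r of 0.9931 to 0.9975, cultures 1 and 3 being the closest pair, and the lines with r of 0.981 to 0.9865. Of 7 osteoblast markers, 3 fell in the lines (42.9%, beside 11.4% of all genes). They were Ibsp, Phex and Dmp1 (differences of -6.16, -4.73 and -4.36, limma adjusted p up to 0.000946). The others, Alpl, Sp7, Col1a1 and Col1a2, differed by -1.39, -1.205, -0.07 and -0.03 without a call. The mean of the 7 was 9.31 to 9.91 in the lines, against 11.79 to 12.52 in the cultures. The cultures also carried fat cell transcripts: the mean of 9 adipocyte markers was 7.53 to 8.03 in the lines, against 10.67 to 11.33 in the cultures. Of the 9, 8 fell in the lines (88.9%, beside 11.4% of all genes). In bulk RNA, fewer cells of a type and less RNA per cell cannot be told apart, and the part of these marker differences in the ligand results was not tested.

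At an unadjusted p under 0.05 in limma, 6 of the 36 ligands were higher and 0 were lower. Of all 19938 genes, 3699 were higher and 3422 lower at that threshold. The count of 5 was 6 without OS_494H, 3 without OS_716H and 2 without OS_493H, beside 13.7%, 14% and 10.7% of all genes. It was 1 whichever culture was left out, beside at least 7.69% of all genes called higher in those fits. Differences were positive for 26 ligands and negative for 10, with a median of 0.09, against a median of -0.02 over all genes. Without OS_716H the median of the ligands was 0.02. All 3 lines lay above all 3 cultures for 6 of the 36 ligands, beside 20.5% of all genes. All 3 lay below for none of the ligands, beside 21.0% of all genes. RMA gives no detection call, so each ligand was set beside the 95th percentile of 1194 olfactory and vomeronasal receptor genes, which bone cells are taken to use little and which stood at 6.64 to 6.86. Above it on all 6 arrays were 15 ligands, 6 were above it on some arrays, and 15 on none. Those last 15 read 4.69 to 6.74, and their differences lay between -0.18 and 0.22 with adjusted p of at least 0.225.

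**Figure D1:**
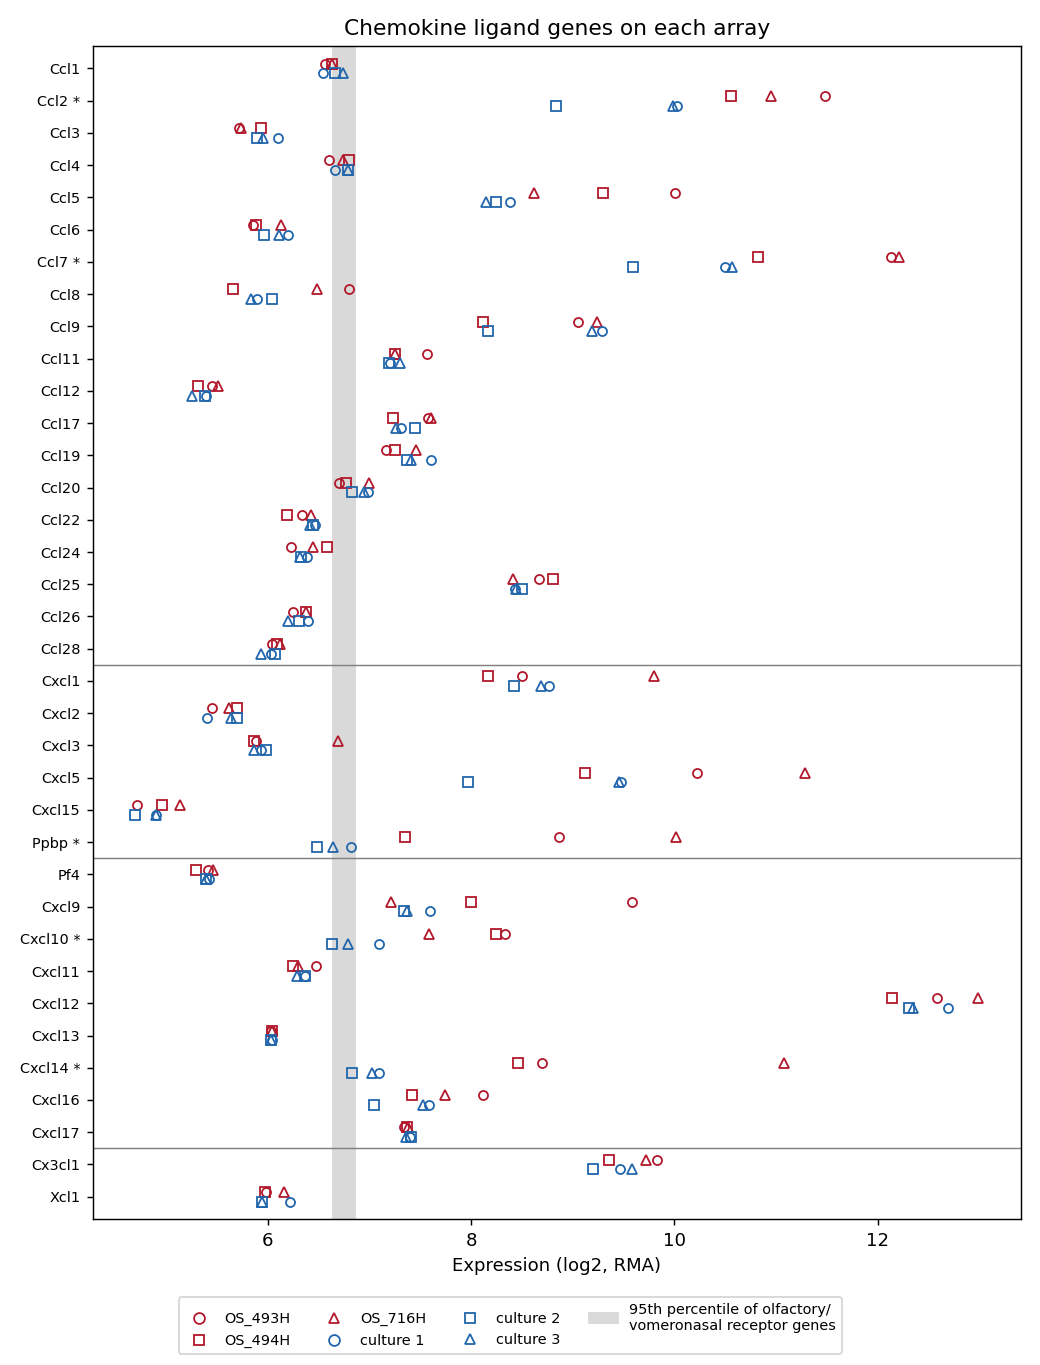
Each row is a chemokine ligand gene, and each point its log2 expression on 1 array, red for the 3 osteosarcoma lines and blue for the 3 cultures. The grey band is the range over arrays of the 95th percentile of olfactory and vomeronasal receptor genes, and an asterisk marks the 5 ligands called higher in the lines.

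Among 19 CC ligands, 2 rose, a smaller share than the 13.2% of all genes called higher. They are the monocyte attractants Ccl2 and Ccl7, which both bind Ccr2. Ccl7 read 12.13, 10.83 and 12.21 in OS_493H, OS_494H and OS_716H, against 10.49, 9.60 and 10.56 in cultures 1, 2 and 3. All lines lay above all cultures, with OS_494H lowest among the lines and culture 2 lowest among the cultures. Its mean was 11.72 ± 0.78 in the lines and 10.22 ± 0.54 in the cultures (SD, n = 3 each), a difference of 1.50 ± 0.43 (SE), or 2.84-fold (limma, adjusted p = 0.0464). For Ccl2 too, culture 2 was the lowest culture and OS_494H the lowest line. Ccl2 read 11.48, 10.55 and 10.95 in OS_493H, OS_494H and OS_716H, against 10.02, 8.84 and 9.98 in cultures 1, 2 and 3. The difference was 1.38 ± 0.37, or 2.60-fold (limma, adjusted p = 0.0381), and again no culture reached the lowest line. Both calls held without OS_494H (adjusted p 0.0291 for Ccl2 and 0.00600 for Ccl7) and were lost without any other single sample. On leaving out any single culture, OS_493H or OS_716H, the adjusted p of Ccl2 was 0.0570 to 0.107 and that of Ccl7 was 0.0867 to 0.132. Without OS_716H the differences were 1.40 for Ccl2 (adjusted p 0.0774) and 1.26 for Ccl7 (adjusted p 0.112).

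Ccl5 (RANTES), an attractant of T cells, separated the groups but was not called. It read 10.01, 9.30 and 8.61 in OS_493H, OS_494H and OS_716H, against 8.39, 8.24 and 8.15 in cultures 1, 2 and 3. The lines were spread over more than a log2 unit, while the cultures lay close together. The difference was 1.05 ± 0.32, or 2.07-fold (limma, adjusted p = 0.0597). Without OS_716H, the lowest line, the difference was 1.39 (adjusted p 0.00909), and without OS_493H, the highest, it was 0.70 (adjusted p 0.0768). Without a single culture the adjusted p was 0.134 to 0.170. Ccl9, a ligand of Ccr1 made by mouse osteoclasts and myeloid cells, read 9.05, 8.11 and 9.24 in OS_493H, OS_494H and OS_716H, against 9.29, 8.16 and 9.19 in cultures 1, 2 and 3. The groups overlapped, with 1 low sample in each (difference -0.08, 95% interval -1.02 to 0.87). Ccl8, which in the mouse signals through Ccr8, read 6.80, 5.66 and 6.48 in OS_493H, OS_494H and OS_716H, against 5.89, 6.04 and 5.83 in cultures 1, 2 and 3. Here OS_494H lay below every culture and the other lines above them (difference 0.39 ± 0.28, limma adjusted p = 0.375). Without OS_494H the difference was 0.72 (adjusted p 0.00940), without OS_493H it was 0.15 (adjusted p 0.757) and without OS_716H 0.31 (adjusted p 0.544).

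The other 14 CC ligands had small differences and no call: Ccl1, Ccl3, Ccl4, Ccl6, Ccl11, Ccl12, Ccl17, Ccl19, Ccl20, Ccl22, Ccl24, Ccl25, Ccl26 and Ccl28. Their differences lay between -0.18 for Ccl3 and 0.17 for Ccl25. Another probe set of Ccl25, dimmer and so not used, differed by 0.28 without a call (limma, adjusted p = 0.138). Ccl11 (eotaxin), Ccl17, Ccl19 and Ccl25 were above the olfactory receptor level on all 6 arrays. Ccl25, a thymic and gut ligand, read 8.67, 8.81 and 8.41 in OS_493H, OS_494H and OS_716H, against 8.43, 8.50 and 8.44 in cultures 1, 2 and 3. Ccl19 has 5 probe sets, of which a pair held identical values, and all 5 differed by -0.17 to -0.20 without a call. The genome holds near-identical copies of it, so the value of Ccl19 is uncertain. Macrophages are a known source of CC ligands. The mean of 10 macrophage markers was 6.52 to 6.56 in the lines and 6.44 to 6.47 in the cultures. Cd14 was the 1 of 10 that rose (10%, beside 13.2% of all genes), by 0.53 (limma, adjusted p = 0.0164). Ptprc, which encodes CD45 of white blood cells, read 6.06 to 6.31 in the lines and 6.26 to 6.28 in the cultures, above the olfactory receptor level on no array. The call of Cd14 was lost without culture 1, culture 2 or OS_493H (adjusted p 0.0524 to 0.0724). The part of macrophages in the ligand results was not tested.

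Of 6 CXC ligands that act on neutrophil receptors, Ppbp was the 1 that rose (16.7%, beside 13.2% of all genes). Ppbp read 8.87, 7.35 and 10.02 in OS_493H, OS_494H and OS_716H, against 6.82, 6.48 and 6.64 in cultures 1, 2 and 3. The cultures lay below the olfactory receptor level and the lines above it, OS_716H being the highest. Means were 8.74 ± 1.34 in the lines and 6.65 ± 0.17 in the cultures (SD, n = 3 each), a difference of 2.10 ± 0.61, or 4.28-fold (limma, adjusted p = 0.0487). Without OS_716H it was 1.46 (adjusted p 0.0608), and the call was also lost without OS_493H or without any single culture (adjusted p 0.122 to 0.134). Platelets and their precursors are the known store of both Ppbp and Pf4. Pf4, the neighbour of Ppbp on chromosome 5, read 5.41, 5.29 and 5.45 in OS_493H, OS_494H and OS_716H, against 5.42, 5.39 and 5.39 in cultures 1, 2 and 3, under the olfactory receptor level. Of 5 other platelet markers, Itga2b rose (by 0.48, limma adjusted p = 0.0105) and Itgb3 fell by 1.12 (adjusted p = 0.0243). Each is 20% of the 5, beside 13.2% of all genes called higher and 11.4% lower. The mean of the 5 was 7.52 to 7.81 in the lines and 7.87 to 7.91 in the cultures. The call of Itgb3 was lost without OS_716H or any single culture (adjusted p up to 0.0904). Their part in the level of Ppbp was not tested.

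Cxcl5 and Cxcl1 were spread within the groups and were not called. Cxcl5 read 10.23, 9.12 and 11.28 in OS_493H, OS_494H and OS_716H, against 9.47, 7.97 and 9.45 in cultures 1, 2 and 3. The lowest line lay below 2 of the cultures, and the difference of 1.25 ± 0.62 did not pass (limma, adjusted p = 0.210). It was 0.71 without OS_716H and 0.75 without culture 2. Cxcl1 read 8.50, 8.17 and 9.80 in OS_493H, OS_494H and OS_716H, against 8.77, 8.42 and 8.69 in cultures 1, 2 and 3, so that only OS_716H exceeded the cultures (difference 0.20 ± 0.40, and -0.29 without OS_716H). Cxcl2, Cxcl3 and Cxcl15 were under the olfactory receptor level on every array, with differences of 0.01, 0.22 and 0.11. Cxcl3 came closest to that level in OS_716H, with 6.69 there against 5.86 to 5.98 on the other 5 arrays.

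Cxcl14 and Cxcl10 were the 2 of 9 remaining CXC ligands that rose (22.2%, beside 13.2% of all genes). Cxcl14, a ligand known from epithelia that attracts monocytes and whose receptor is not settled, had the highest difference of all 36. It read 8.70, 8.46 and 11.08 in OS_493H, OS_494H and OS_716H, against 7.09, 6.82 and 7.02 in cultures 1, 2 and 3. All lines were above all cultures, and OS_716H was well above the other lines. Means were 9.41 ± 1.45 in the lines and 6.98 ± 0.14 in the cultures (SD, n = 3 each), a difference of 2.43 ± 0.66, or 5.40-fold (limma, adjusted p = 0.0382). Without OS_716H the difference was 1.60 with an adjusted p of 0.00210. On leaving out any single culture the adjusted p was 0.107 to 0.109.

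Cxcl10, which interferon gamma induces and which attracts activated T cells through Cxcr3, was the ligand with the lowest adjusted p. It read 8.33, 8.24 and 7.59 in OS_493H, OS_494H and OS_716H, against 7.09, 6.63 and 6.78 in cultures 1, 2 and 3. The groups did not overlap, and 2 of the cultures lay under the olfactory receptor level. Means were 8.05 ± 0.41 in the lines and 6.84 ± 0.24 in the cultures (SD, n = 3 each), a difference of 1.22 ± 0.22, or 2.33-fold (limma, adjusted p = 0.00901). Its call was kept in all 15 alternative fits, with adjusted p from 0.00331 to 0.0417, and without OS_716H the difference was 1.45. Cxcl9, which shares its receptor and its inducer, read 9.58, 7.99 and 7.21 in OS_493H, OS_494H and OS_716H, against 7.59, 7.34 and 7.37 in cultures 1, 2 and 3. OS_493H and OS_494H were above the cultures and OS_716H below them, and the difference of 0.83 ± 0.55 was not called (limma, adjusted p = 0.346). Without OS_493H it was 0.17, and without OS_716H 1.35 (adjusted p 0.0820). Cxcl11, the third ligand of Cxcr3 and an annotated pseudogene in the RefSeq gene table, was under the olfactory receptor level throughout, with a difference of 0.00. T cells are the cells that these ligands attract. Of 7 lymphocyte markers none was called in limma, beside 13.2% of all genes called higher and 11.4% lower (1 was higher at an unadjusted p under 0.05). The mean of the 7 was 5.92 to 6.05 in the lines and 5.97 to 6.08 in the cultures.

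Cxcl12, the marrow retention signal for blood stem cells, was not called. It read 12.58, 12.14 and 12.99 in OS_493H, OS_494H and OS_716H, against 12.69, 12.31 and 12.35 in cultures 1, 2 and 3. The groups overlapped, and the difference was 0.12 ± 0.22 with a 95% interval of -0.41 to 0.66. Of 8 markers of marrow stromal cells, among them Cxcl12 itself, 2 fell (25%, beside 11.4% of all genes) and none rose (beside 13.2%). Of the 8 differences 5 were positive and 3 negative, with a median of 0.09. The mean of the 8 was 10.36 to 11.29 in the lines and 10.57 to 10.87 in the cultures. Kitl and Foxc1 fell by 1.16 and 1.00 (limma, adjusted p = 0.0399 and 0.0331), whereas Lepr and Ebf3 differed by 1.90 and 0.62 without a call (adjusted p = 0.118 and 0.130). The call of Kitl was lost without any single culture, reaching an adjusted p of 0.138, and the Foxc1 call without culture 1, culture 3, OS_493H or OS_494H (adjusted p up to 0.119). Cxcl16, a transmembrane ligand of Cxcr6, read 8.11, 7.42 and 7.74 in OS_493H, OS_494H and OS_716H, against 7.58, 7.04 and 7.53 in cultures 1, 2 and 3 (difference 0.37 ± 0.22, limma adjusted p = 0.276). Cxcl13, the B cell attractant, and Cxcl17 differed by 0.00 and -0.02. Cx3cl1 (fractalkine), also membrane-bound, read 9.83, 9.36 and 9.72 in OS_493H, OS_494H and OS_716H, against 9.46, 9.20 and 9.59 in cultures 1, 2 and 3 (difference 0.22, 95% interval -0.15 to 0.59). Xcl1, a lymphocyte product, stayed under the olfactory receptor level with a difference of 0.00.

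**Figure D2:**
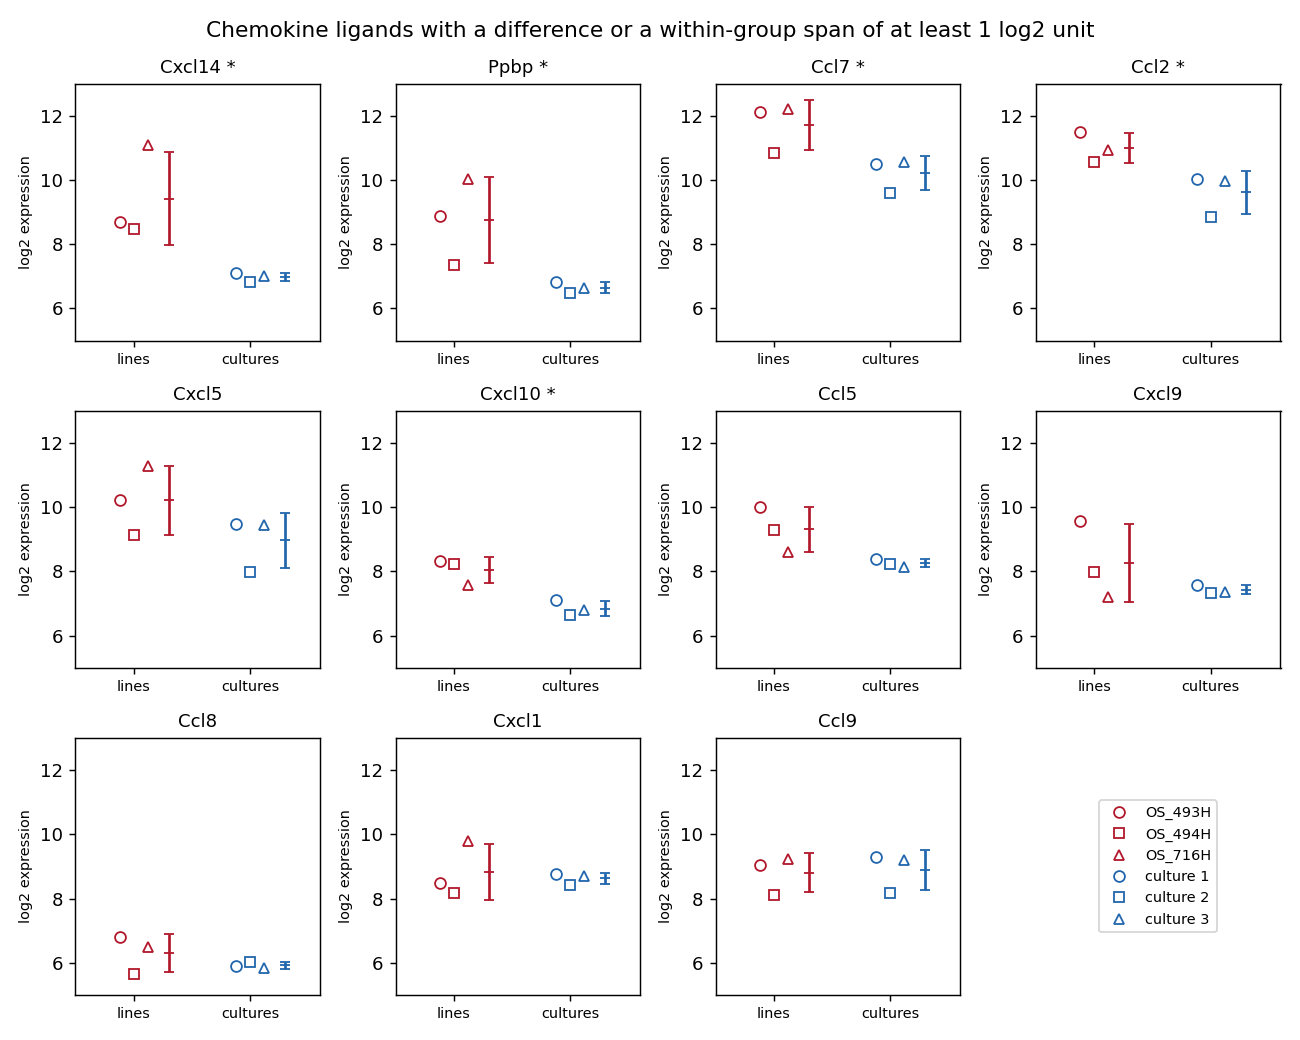
Log2 expression of the 11 ligands that were called, differed by at least 1 or spanned at least 1 within a group, with points for the 3 lines (left) and the 3 cultures (right) and bars for mean and SD. The asterisks mark the 5 calls. OS_716H stands highest for Cxcl14 and Ppbp, OS_493H for Cxcl10, Ccl5 and Cxcl9.

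The 11 ligands drawn by sample differed in which line carried them most. Of these 11, OS_716H was highest among the lines for 6 and OS_493H for 5. OS_494H was lowest for 8 and OS_716H for 3. The 3 of the 11 lowest in OS_716H were Cxcl10, Ccl5 and Cxcl9, and those highest there included Cxcl14, Ppbp, Cxcl5 and Cxcl1. Among the cultures, culture 2 was lowest for 9 of the 11 and culture 3 for 2. The 11 were chosen by their own values, and these ranks were not counted over all ligands or all genes. OS_493H was the lowest line for 0 of the 11, but it was the lowest for other ligands, such as Ccl1, Ccl3 and Ccl19. The SD was larger over the lines than over the cultures for 27 of 36 ligands (75%), beside 65.8% of all genes, and the median SD ratio was 1.58, beside 1.47. The lines are separate tumours, whereas the cultures are of 1 cell line.

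Most ligand genes lie in clusters, with 13 of the 36 on chromosome 5 and 12 on chromosome 11. By the gene order in RefSeq, Ccl2 and Ccl7 are next to each other at the start of a row that goes on with Ccl11, Ccl12, Ccl8 and Ccl1, and 2 of those 6 rose. In the row Ccl5, Ccl9, Ccl6, Ccl3 and Ccl4 none of 5 was called, and Ccl5 stood apart with 1.05 where the others lay between -0.18 and -0.04. On chromosome 5, Ppbp was the 1 of 7 called in the row Cxcl5, Ppbp, Pf4, Cxcl3, Cxcl15, Cxcl1 and Cxcl2. Its neighbours differed by 1.25 for Cxcl5 and -0.02 for Pf4, so that genes side by side had unlike differences. In the row Cxcl9, Cxcl10 and Cxcl11, Cxcl10 was the 1 of 3 called. The rows are short, and their counts stand beside 13.2% of all genes called higher. Cxcl14 lies on chromosome 13, outside these rows.

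**Figure D3:**
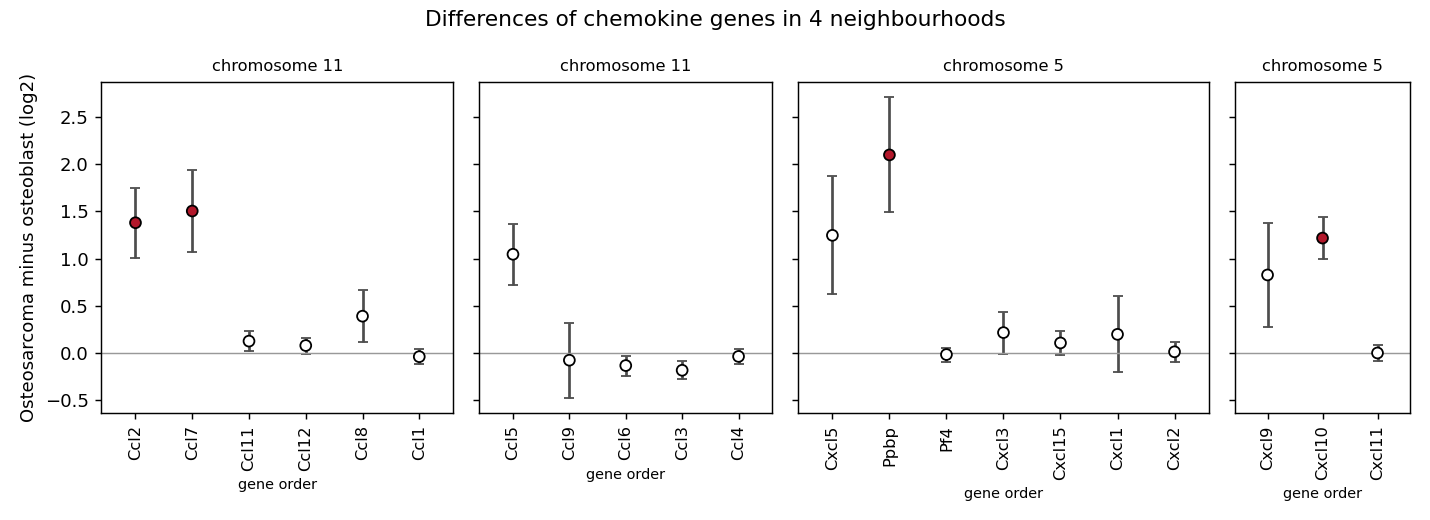
The log2 difference (osteosarcoma lines minus osteoblast cultures) of each ligand in 4 chromosomal rows, in gene order, with bars for the SE. Filled points are called higher: Ccl2 and Ccl7, Ppbp, and Cxcl10. Pf4, beside Ppbp, lies at -0.02.

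Promoter windows from RefSeq (GRCm38.p6, 250 bases before to 50 after the start) were at hand for 25 of the 36 ligands, in 26 windows. Both strands were searched for the NF-kappaB consensus, for the interferon-stimulated response element (2 copies of TTTC parted by any 2 bases), for the AP-1 site TGANTCA and for the TATA box TATAAA. An NF-kappaB match was in 7 of the 26 windows (26.9%), beside 8.46% of 32851 windows of all genes. Interferon element matches were in 3 (11.5%, beside 3.44%), AP-1 matches in 5 (19.2%, beside 7.81%) and TATA matches in 10 (38.5%, beside 13.6%). Cxcl10 had both of the first kinds. The other NF-kappaB matches were those of Ccl1, Ccl9, Ccl20, Cxcl1, Cxcl2 and Cxcl3, which were not called. The called ligands Ccl2 and Ccl7 are among the 11 without a window, and a link between matches and calls was not tested. A match is a description of the letters and not a site. The 250 bases before the start are shown for the 3 called ligands with a window, Cxcl10, Ppbp and Cxcl14, and for the neighbours Cxcl9 and Pf4 that were not called. Each runs on the strand of its gene, and capitals mark the matches.
Cxcl10: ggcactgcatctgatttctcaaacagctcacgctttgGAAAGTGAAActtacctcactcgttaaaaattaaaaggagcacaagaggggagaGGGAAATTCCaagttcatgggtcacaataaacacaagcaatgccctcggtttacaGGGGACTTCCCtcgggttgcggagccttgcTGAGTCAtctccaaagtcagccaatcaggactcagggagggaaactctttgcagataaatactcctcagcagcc
Cxcl9: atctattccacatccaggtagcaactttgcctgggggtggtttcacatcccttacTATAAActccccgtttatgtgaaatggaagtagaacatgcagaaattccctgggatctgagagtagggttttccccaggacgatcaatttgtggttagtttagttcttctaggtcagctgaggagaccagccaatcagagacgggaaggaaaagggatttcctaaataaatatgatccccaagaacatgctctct
Ppbp: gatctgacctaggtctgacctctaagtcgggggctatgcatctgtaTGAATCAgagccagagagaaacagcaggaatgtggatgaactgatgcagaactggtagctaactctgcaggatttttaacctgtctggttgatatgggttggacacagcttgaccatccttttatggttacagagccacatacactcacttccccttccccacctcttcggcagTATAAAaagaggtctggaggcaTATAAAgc
Pf4: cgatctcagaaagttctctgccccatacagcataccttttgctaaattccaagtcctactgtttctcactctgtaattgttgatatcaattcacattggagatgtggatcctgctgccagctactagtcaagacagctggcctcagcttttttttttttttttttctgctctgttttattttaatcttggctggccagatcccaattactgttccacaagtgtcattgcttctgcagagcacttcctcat
Cxcl14: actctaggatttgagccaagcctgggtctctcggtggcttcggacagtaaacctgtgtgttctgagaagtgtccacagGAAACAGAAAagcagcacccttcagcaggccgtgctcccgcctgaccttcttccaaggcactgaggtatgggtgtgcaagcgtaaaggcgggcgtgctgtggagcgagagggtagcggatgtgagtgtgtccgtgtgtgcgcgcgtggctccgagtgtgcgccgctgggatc
The windows are chr5:92348890-92349139 (minus strand) for Cxcl10, chr5:92328080-92328329 (minus strand) for Cxcl9, chr5:90768268-90768517 (plus strand) for Ppbp, chr5:90772185-90772434 (plus strand) for Pf4 and chr13:56296552-56296801 (minus strand) for Cxcl14. Counted from the start of transcription, Cxcl10 has an interferon element match from -213 to -204, NF-kappaB matches from -159 to -150 and, overlapping each other, from -104 to -94, and an AP-1 match from -74 to -68. Cxcl14 has an interferon element match from -172 to -163. Ppbp has an AP-1 match from -204 to -198 and TATA matches from -30 to -25 and from -8 to -3. Cxcl9 has a TATA match from -195 to -190, and its AP-1 match lies after the start and is not shown. None of the 4 patterns is in the letters of the Pf4 window. The AP-1 pattern reads the same on both strands and so counts on each.

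The receptors of these ligands were not called. None of 17 signalling chemokine receptors passed in limma, beside 13.2% of all genes called higher and 11.4% lower. None of the 17 reached an unadjusted p under 0.05 in either direction. Ccr3 and Ccr6 had the largest differences, -0.19 and -0.13 (adjusted p = 0.151 and 0.406). Ccr2, the receptor of Ccl2 and Ccl7, read 4.90 to 4.98 in the lines and 4.97 to 5.11 in the cultures. Cxcr2, that of Ppbp, read 5.10 to 5.44 in the lines and 5.15 to 5.21 in the cultures, and both receptors were under the olfactory receptor level on every array. Cxcr3, that of Cxcl10, read 6.69 to 7.13 in the lines and 6.91 to 7.07 in the cultures. Cxcr4, the receptor of Cxcl12, named here after its values were seen, read 6.71 to 6.95 in the lines and 6.71 to 6.81 in the cultures.

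Of 5 atypical receptors measured, 1 fell (20%, beside 11.4% of all genes) and 1 rose (20%, beside 13.2%). Ackr4, which removes Ccl19, Ccl21 and Ccl25, read 7.72, 7.45 and 7.76 in OS_493H, OS_494H and OS_716H, against 9.44, 9.07 and 8.87 in cultures 1, 2 and 3. It fell by 1.48 on the log2 scale (limma, adjusted p = 0.00168), and the groups did not overlap. Ackr3, which binds and clears Cxcl12, read 8.58, 7.23 and 8.45 in OS_493H, OS_494H and OS_716H, against 6.98, 6.87 and 6.64 in cultures 1, 2 and 3. It was 1.26 higher (limma, adjusted p = 0.0421), with OS_494H near the cultures. That call was lost without OS_493H, without OS_716H or without any single culture (adjusted p up to 0.137).

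Chemokine genes are induced through NF-kappaB and interferon signalling. Of 27 NF-kappaB and innate signalling genes, 5 fell (18.5%, beside 11.4% of all genes) and 1 rose (3.7%, beside 13.2%), with a median difference of -0.03. Nfkbib, an inhibitor of NF-kappaB, fell by 1.01 (limma, adjusted p = 0.00141), Ikbkg, the regulatory subunit of the IkappaB kinase, by 0.96 (adjusted p = 0.00636), Tlr4, the endotoxin receptor, by 0.77 (adjusted p = 0.0423) and the adaptor Traf6 by 0.72 (adjusted p = 0.00280). Tlr4 kept its call without OS_493H but lost it without any other single sample (adjusted p up to 0.143). Without OS_494H the list had 3 lower and 6 higher, beside 11.6% lower and 13.7% higher of all genes in that fit. It had 3 lower without culture 1, culture 3 or OS_716H, beside 6.07%, 6.77% and 10.7% of all genes. The gene that rose was the NF-kappaB subunit Rel, named after its values were seen, by 0.67 (adjusted p = 0.00410). Of 16 interferon signalling genes, 2 fell (12.5%, beside 11.4% of all genes) and none rose (beside 13.2%), with a median of -0.16. At an unadjusted p under 0.05 in limma, 7 were lower and 0 higher, beside 3422 lower and 3699 higher of 19938 genes. The 2 were the transcription factor Irf3, which fell by 0.75 (limma, adjusted p = 0.00466), and the interferon gamma receptor chain Ifngr1, which fell by 0.66 (adjusted p = 0.00284). Without OS_493H, 6 were lower, beside 8.72% of all genes in that fit. Without OS_494H 3 were lower and 1 higher, beside 11.6% and 13.7% of all genes. Irf7, a target and amplifier of interferon named after its values were seen, read 9.42, 7.55 and 6.78 in OS_493H, OS_494H and OS_716H, against 9.59, 9.18 and 9.77 in cultures 1, 2 and 3, and was not called (adjusted p = 0.119). OS_716H was the lowest line for Irf7, as it was for Cxcl10, Ccl5 and Cxcl9. In the same list it was also the lowest line for Stat2 and Irf9, but the highest for Irf1 and Jak2. A link between these genes and the ligands was not tested.

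Of 17 other inflammatory cytokines, 1 rose (5.88%, beside 13.2% of all genes) and 1 fell (5.88%, beside 11.4%). Il18 rose by 1.78 (limma, adjusted p = 0.00175). Il15, which sustains natural killer cells, fell by 1.20 (limma, adjusted p = 0.0170, but 0.0542 without OS_493H). Il18, a cytokine matured by the inflammasome, read 9.02, 9.15 and 8.78 in OS_493H, OS_494H and OS_716H, against 7.20, 7.59 and 6.83 in cultures 1, 2 and 3. Il6, named after its values were seen, read 6.42, 5.17 and 7.03 in OS_493H, OS_494H and OS_716H, against 5.27, 5.26 and 5.09 in cultures 1, 2 and 3, and was not called (adjusted p = 0.151). Without OS_494H 3 of the cytokines were higher (beside 13.7% of all genes in that fit), and without OS_716H 2 were lower (beside 10.7%). Like Cxcl5 and Ppbp, Il6 was highest among the lines in OS_716H and lowest in OS_494H, and a link between them was not tested. Tnf and Il1b, classical inducers of chemokines, were under the olfactory receptor level on every array.

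Of 17 genes for heparan sulfate proteoglycans, on which chemokines are held, and for enzymes that make or trim their sugar chains, 4 rose (23.5%, beside 13.2% of all genes) and 3 fell (17.6%, beside 11.4%). Those that fell were core proteins, and those that rose were 3 enzyme genes and the core protein Hspg2 (perlecan). Sulf1, which removes sulfate groups outside the cell, read 11.37, 10.05 and 11.24 in OS_493H, OS_494H and OS_716H, against 8.43, 7.75 and 8.27 in cultures 1, 2 and 3. It rose by 2.74 (limma, adjusted p = 0.00329), and the sulfotransferase Hs6st2 rose by 1.66 (adjusted p = 6.72e-04). The core proteins Gpc1 (a glypican) and Sdc2 (a syndecan) fell by 1.43 and 1.04 (adjusted p = 0.00556 and 0.00164). Without OS_494H 8 of the 17 were higher, beside 13.7% of all genes in that fit. Of 11 genes for proteases that cut chemokines or their anchors, 2 fell (18.2%, beside 11.4% of all genes) and 1 rose (9.09%, beside 13.2%). Ctsk and Mmp14 fell, by 1.65 and 0.67 (limma, adjusted p = 0.0114 and 0.00721), and Adam10, which sheds Cx3cl1 and Cxcl16, rose by 0.41 (adjusted p = 0.0316). The call of Adam10 was lost without culture 1 or 3 and without OS_494H or OS_716H (adjusted p up to 0.117), and that of Ctsk without culture 1 (adjusted p 0.0530). Without OS_493H or OS_716H 3 of the 11 were lower, beside 8.72% and 10.7% of all genes in those fits.

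**Figure D4:**
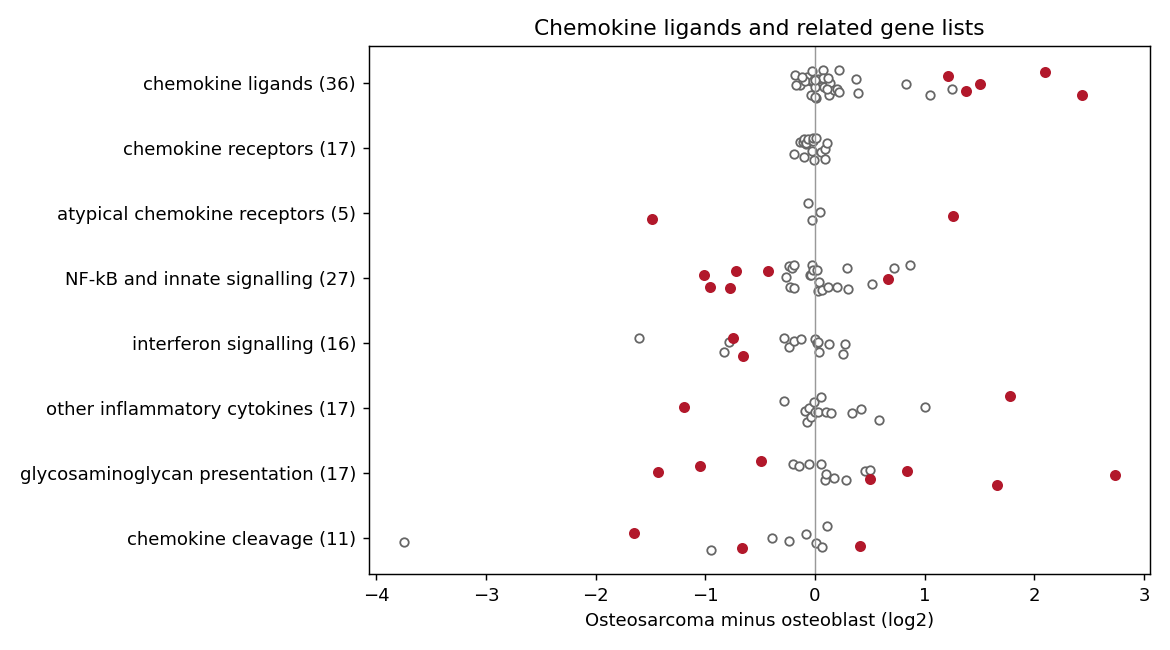
Each point is the log2 difference (osteosarcoma lines minus osteoblast cultures) of 1 gene, for the 36 chemokine ligands and 7 related lists, with the number of genes measured in brackets. Filled points passed an adjusted p under 0.05 in limma: 5 ligands, all positive, none of 17 receptors, and genes on both sides in 5 of the other 6 lists.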

How the data were processed

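Each of 6 total RNA samples was read on its own 1-colour Affymetrix Mouse Gene ST array. The deposited values are log2 expression values, and the submitters' processing notes name RMA and the build mm9. For the software, neither name nor version is given in the sources used here. RMA equalises the probe distributions of the arrays, compresses large differences and gives no detection call. The deposited log2 values lie between 3.04 and 14.88, with array medians of 7.45 to 7.58. The number of arrays limits the precision, and no scan date was used, so no batch could be tested.

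Of 35556 probe sets, 21789 had 1 symbol in the platform annotation, 1621 had several and 12146 were not listed. Probe sets with 1 symbol gave 19938 genes. All 36 ligands were found in the RefSeq gene table of GRCm38.p6, from which chromosome and gene order were taken. At most 24 probe sets held identical values on a pair of arrays.

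Groups came from the sample titles. The functions lmFit and eBayes of limma 3.58.1 (R 4.3.3, two-sided, default settings) compared all 6 arrays as osteosarcoma minus osteoblast, and the fit was tested on simulated data. Members and lists were chosen with earlier results of these data known, so counts over them are descriptions. Every ligand is named, with its value in each sample where it was called, differed by at least 1 or spanned at least 1 within a group. From each other list up to 4 called genes with the largest change are named, or the 2 with the largest difference where fewer than 2 were called, besides receptors of called ligands. Cxcr4, Rel, Irf7, Il6, Tnf, Il1b, Ptprc, Lepr, Ebf3 and Hspg2 were added after the values were seen. So were Irf1, Irf9, Jak2, Stat2, Alpl, Sp7, Col1a1 and Col1a2, and the values by sample of Cxcl12, Cxcl16, Cx3cl1, Ccl25 and Pf4. Alternatives were quantile normalisation, median centring, brighter genes alone, an intensity trend with robust moderation, separate spreads for the groups, array weights, other uses of several probe sets, cultures 1 and 3 averaged, stricter thresholds and leaving out each sample. Motifs were searched in Python 3.11.15.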

Additional observations from a re-analysis of the deposited data

Results flagged for a closer look

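Of the probe sets whose annotation lists several symbols, and which the comparisons of single genes leave out, 3 carried a signal that was higher in the lines. The annotation gives each of them 5 symbols, among them Ccl27a and Ccl27b, so no single gene can be named. Probe sets 10504164 and 10504194 held the same values: 8.28, 8.59 and 8.80 in OS_493H, OS_494H and OS_716H, against 7.62, 7.50 and 7.60 in cultures 1, 2 and 3. Their difference was 0.98 (limma, adjusted p = 0.00550). Probe set 10512315 read 8.54, 8.99 and 9.28 in OS_493H, OS_494H and OS_716H, against 7.73, 7.67 and 7.83 in cultures 1, 2 and 3, a difference of 1.20 (limma, adjusted p = 0.00725). All 3 lines lay above all 3 cultures in each. The 4 probe sets whose 7 symbols include Ccl21a, Ccl21b and Ccl21c shared 1 set of values, 7.06 to 7.22 in the lines and 7.03 to 7.31 in the cultures, and were not called.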

How the results depend on the processing

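The number of ligands called higher was 5, beside 13.2% of all genes. It was 3 with an intensity trend and robust moderation (12.7% of all genes), 1 with cultures 1 and 3 averaged (8.05%), and 1 at an adjusted p under 0.01 (6.99%). With a difference of at least 2-fold also required, it stayed at 5, beside 4.07% of all genes. The ligands were chosen with earlier results of these data known, so this is a description. On leaving out single samples the number called higher was 1 to 6, beside 7.69% to 14% of all genes, and those fits had fewer samples. No ligand was called lower under any alternative. The median difference over the ligands, 0.0929, was 0.159 after quantile normalisation and 0.158 after median centring, which shifted all genes by 0.0552 and 0.0648. It was 0.937 among the 14 ligands kept by the filter on brighter genes. That filter goes by the higher group mean and so keeps ligands bright in the lines alone, such as Ppbp, so this median says nothing about the ligands as a whole. On leaving out single samples the median was 0.0162 to 0.116. Of 15 alternative fits, Cxcl10 lost its call in 0, Cxcl14 in 4, Ccl2 in 7, and Ccl7 and Ppbp in 8 each, and Ccl5 gained one in 5. All 5 kept their direction. Of the ligands not called, 15 changed sign under at least 1 alternative, the largest of them at 0.22. No paired analysis was possible because no line is matched to a culture: the lines are 3 tumours and the cultures are of 1 cell line.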

Other observations

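Some genes of the lists beside the ligands separated the lines from each other without a call between the groups, and they were chosen here after their values were seen. Mmp13, a collagenase that osteoblasts make and that can also cut chemokines, read 9.19, 7.67 and 12.86 in OS_493H, OS_494H and OS_716H, against 13.92, 13.11 and 13.92 in cultures 1, 2 and 3 (limma, adjusted p = 0.0700). Lepr, the leptin receptor of marrow stromal cells, read 6.63, 8.23 and 9.87 in OS_493H, OS_494H and OS_716H, against 6.20, 6.68 and 6.14 in cultures 1, 2 and 3 (limma, adjusted p = 0.118). OS_716H was thus the line with the highest Mmp13, Lepr and Cxcl14. Tek, the angiopoietin receptor of endothelial cells, read 9.05, 6.30 and 7.52 in OS_493H, OS_494H and OS_716H, against 6.40, 6.34 and 6.40 in cultures 1, 2 and 3. None of 7 endothelial markers was called in limma, beside 13.2% of all genes called higher and 11.4% lower. None of the 7 had an unadjusted p under 0.05.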
